A study of Mus musculus with 56 samples.

Results

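Serine synthesis and the ATF4 amino-acid response were followed in the mouse anterior hypothalamus as 10 genes, Atf4, Asns, Phgdh, Psat1, Psph, Shmt2, Mthfd2, Trib3, Sesn2 and Chac1. They were chosen by symbol from the 17564 genes of the series, not by a cut on their measured values, but with earlier results of these data known. All 10 were found, passed the filter on low values and were tested. RNA was sequenced from 56 female C57BL/6J mice, aged 9 weeks and kept under 12 h of light and 12 h of dark. For 7 days, 28 mice had food in the light from zeitgeber time 0 to 12 (day time-restricted feeding, DRF), and 28 had it in the dark from ZT12 to ZT24 (night time-restricted feeding, NRF). All ate normal chow, which they had eaten freely before, and none of these mice was fed freely during the experiment, so every comparison is between restricted regimens. In each regimen, 4 mice were sampled every 4 h from ZT0 to ZT24, every mouse once, which gave 14 groups of 4.

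Serine is made from the glycolytic intermediate 3-phosphoglycerate by phosphoglycerate dehydrogenase (Phgdh), phosphoserine aminotransferase (Psat1) and phosphoserine phosphatase (Psph). Mitochondria pass the carbon of serine to folate through Shmt2 and Mthfd2, and in brain the synthesis enzymes are known above all from astrocytes and other glia. Shortage of amino acids activates the kinase GCN2, and phosphorylation of eIF2alpha then slows most translation while it raises that of the transcription factor ATF4. Known ATF4 targets include the serine enzymes, asparagine synthetase (Asns), the pseudokinase Trib3, the leucine sensor Sesn2, which restrains mTORC1, and Chac1, which degrades glutathione. The measurements are of mRNA and do not show ATF4 protein, which is controlled in large part by translation.

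The promoters with the letters of the C/EBP-ATF response element, the site that ATF4 binds with C/EBP partners, are shown first because these letters mark the members with a possible ATF4 site in this window. In RefSeq windows on GRCm38.p6 from 250 bases before to 50 bases after each start, TGATGNAA was searched on both strands. It was found for 3 of the 10 members, Asns, Chac1 and Trib3, against 3.15% of the 13860 genes with a window. The stretches around the sites of Asns and Chac1 are given on the strand of each gene, with the site in capitals:
Asns, chr6:7693210-7693258, minus strand: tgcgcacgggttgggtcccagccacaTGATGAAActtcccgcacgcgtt
Chac1, chr2:119351023-119351082, plus strand: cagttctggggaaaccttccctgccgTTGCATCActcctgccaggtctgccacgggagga
The Asns site began 23 bases before the start and read in the direction of the gene, and that of Chac1 began 193 bases before it and read in the other direction, as TGATGCAA. The third, TGATGTAA of Trib3, lay from base 15 after the start, also in the other direction. These are matches of letters in a short window, and binding was not measured. The windows of the other 7 members hold none of them. The E-box CACGTG, the letters bound by CLOCK and BMAL1, was in the window of 0 of 10 members and of 10.4% of the genes, which says only that these letters are not in these windows.

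Levels are given as CPM, counts per 1e6 reads of the TMM-normalized library, recovered from the deposited values, and differences as log2(CPM + 1), which understates the change of a gene with few reads. The normalized library size was 29591263 to 34493348 reads per mouse, and the 84 pairs of mice of the same group correlated at 0.984 to 0.998 across genes. Of the DRF libraries at ZT16, replicates 3 and 4 stood apart, with genes rising by 0.28 and 0.44 log2 for each added 10% of GC, against -0.13 to 0.13 in the other 54. For the contrasts of regimen, dark and food and for ZT16, the counts of members called are therefore also given without them. Markers of the anterior hypothalamus (Avp, Vip, Oxt, Six6, Six3 and Lhx1) were present in every mouse and summed to 297 to 762 CPM.

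Per kilobase of exon, the members covered a wide range of levels. Atf4 was highest, at 46.1 ± 3.55 CPM per kilobase (SD, n = 56), followed by Asns at 36.4 ± 1.62, Phgdh at 29.1 ± 2.37 and Psat1 at 22.4 ± 2.26. Psph, the last enzyme of the serine pathway, was far lower, at 2.26 ± 0.236. The other 5 genes were Shmt2 at 6.61, Chac1 at 5.48, Mthfd2 at 3.85, Sesn2 at 3.7 and Trib3 at 0.299 CPM per kilobase. This order held for neighbouring genes in at least 55 of 56 mice, with the exception of Mthfd2 and Sesn2, whose ranges (3.09 to 4.81 and 3.12 to 4.75 CPM per kilobase) nearly coincided and where Mthfd2 was above Sesn2 in 35 mice. Trib3 rested on 10 to 34 reads per mouse, whereas Psph, Shmt2, Mthfd2, Sesn2 and Chac1 had 218 to 876 reads and the 4 abundant genes 1808 to 4166. The precision of Trib3 is accordingly the lowest of the 10.

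**Figure D1:**
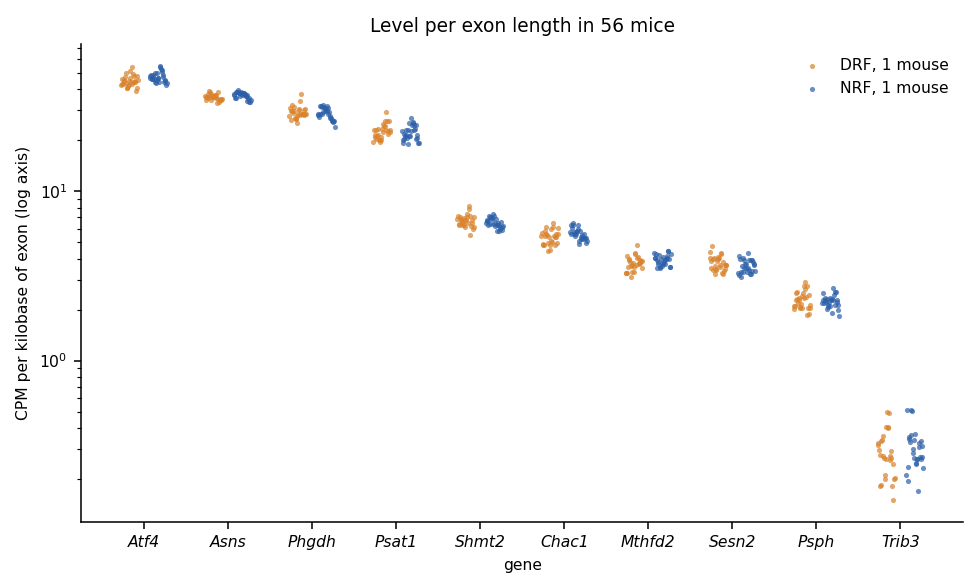
Level of each gene in CPM per kilobase of exon (log axis), 1 point per mouse, DRF in orange and NRF in blue (28 mice each). The regimens overlap for every gene, Atf4 has the highest level (46.1 on average) and Trib3 the lowest (0.299).

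Over the day the members changed little. The ratio of the highest to the lowest group mean was 1.14 for Asns, the steadiest, 1.2 to 1.31 for 8 genes, and 1.96 for the scarce Trib3. To test which changes followed the lighting and which followed the food, all genes were fitted together with limma and p-values were adjusted over 16044 genes. The contrast of dark (ZT16 and ZT20) with light (ZT4 and ZT8), averaged over the regimens, called 4 of the 10 members, 3 higher and 1 lower in the dark. Of all genes tested, 18.0% were called in this contrast, 8.99% as higher and 9.01% as lower. The balance of higher and lower members turned with ZT16. Without ZT16 the dark versus light effect was called for 2 members as higher (Psat1 and Mthfd2) and for 3 as lower (Asns, Phgdh and Shmt2), against 28.3% of all genes. Leaving out only the libraries that stood apart, the same 2 were higher and the same 3 lower, against 30.5% of all genes.

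Psat1 (chr19:15905123-15925059, GRCm38), the aminotransferase of the serine pathway, gave the clearest difference, being higher in the dark under both regimens. In DRF mice its level was 82.8 to 98.4 CPM (median 87.9, n = 8) in the light and 95.8 to 125 (median 104) in the dark. In NRF mice it was 80.6 to 97.7 (median 90.9) in the light and 86.3 to 109 (median 105) in the dark. The dark and light mice overlapped at the edges in each regimen, and the upper mice of the dark stood above every mouse of the light. The difference was 0.20 ± 0.04 (SE) on the log2 scale, a rise of 15% (adjusted p = 5.44e-05), and it passed the threshold in DRF alone (0.24 ± 0.05, adjusted p = 0.00201) and in NRF alone (0.16 ± 0.05, adjusted p = 0.0172). In DRF Psat1 was the 1 member of 10 called, against 3.32% of all genes, and in NRF 5 of 10 members were called, against 26.6%. Inside against outside the food window, Psat1 differed by -0.04 (95% interval -0.11 to 0.03, adjusted p = 0.440). At ZT16, with food for NRF and without it for DRF, the 4 DRF mice had 106, 103, 111 and 103 CPM and the 4 NRF mice 105, 109, 108 and 104, and these groups overlapped throughout. Without the libraries that stood apart the dark-to-light difference of Psat1 was 0.20 ± 0.04 (adjusted p = 1.22e-04), and without ZT16 it was 0.17 ± 0.05 (adjusted p = 0.00515), with 0.25 ± 0.07 in DRF (adjusted p = 0.0276) and 0.09 ± 0.07 in NRF (adjusted p = 0.309).

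The level of Psat1 also moved with markers of oligodendrocytes across mice. Over the 56 mice, log2(CPM + 1) of Psat1 correlated at 0.69 with the log2 summed level of 5 oligodendrocyte markers (Mbp, Mog, Mag, Mobp and Cnp) and at 0.51 with that of 10 astrocyte markers. The gene most like it was Hapln2, a link protein of nodes of Ranvier made by oligodendrocytes (Pearson r = 0.87), followed by the glycerol-3-phosphate dehydrogenase Gpd1 (r = 0.82). These points share libraries and dissections. The summed oligodendrocyte markers were at 3424 to 5779 CPM (median 4472) in the light and 3869 to 6091 (median 4622) in the dark in DRF, and at 4277 to 5500 (median 4483) and 3956 to 5998 (median 4937) in NRF, with no marker at 0. Of these 5 markers, 1 was called in the dark-to-light contrast, as lower in the dark, against 18.0% of all genes, and their median difference was -0.09. In bulk tissue, fewer cells of a type and less RNA per cell cannot be told apart.

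Phgdh (chr3:98313171-98339969), the entry enzyme, did not follow Psat1. In NRF mice it was at 71.0 to 80 CPM (median 78.4, n = 8) in the light and at 64.2 to 76.9 (median 68.2) in the dark. In DRF mice it was at 65.9 to 80.1 (median 72.8) in the light and 69.9 to 93.0 (median 71.2) in the dark. Phgdh was thus lower in the dark in NRF (-0.14 ± 0.04, adjusted p = 0.00936), with overlap of a few mice, whereas DRF gave 0.06 ± 0.04 (adjusted p = 0.457). Expressed as inside minus outside the food window, Phgdh fell by 0.10 ± 0.03 on the log2 scale (adjusted p = 0.0221), and it was the 1 member of 10 called in this contrast, a share no larger than the 10.4% of all genes called. This call was lost without ZT16 (-0.09 ± 0.03, adjusted p = 0.0858), where the DRF mice had 74.8, 70.1, 84.4 and 93.0 CPM, the last 2 being the libraries that stood apart, against 76.9, 71.2, 72.6 and 67.1 in NRF. Without those libraries the food contrast of Phgdh was -0.07 ± 0.03 (adjusted p = 0.157). The contrast of dark and light over both regimens, -0.04 ± 0.03 (adjusted p = 0.368) with all mice, was then past the threshold, at -0.08 ± 0.03 (adjusted p = 0.0275).

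Over 56 mice, Phgdh correlated at 0.44 with the summed oligodendrocyte markers, at 0.37 with the summed microglia markers and at -0.07 with the summed astrocyte markers. By deviations from the group means, the gene most like it was C1qa, a complement gene of the microglia list (r = 0.82). In NRF, where Phgdh fell in the dark, 2 of the 5 oligodendrocyte markers, Cnp and Mag, also fell, and so did 2 of 6 microglia markers, Aif1 and C1qa. The oligodendrocyte list ran from -0.26 to 0.18 with a median of -0.20, and the microglia list from -0.31 to 0.09 with a median of -0.01. Of all genes, 26.6% were called in this contrast. All 5 oligodendrocyte markers had a called 24-h cosine in NRF, against 27.9% of all genes. The peaks were at ZT8.14 for Cnp, ZT9.83 for Mag, ZT10.1 for Mog and ZT14.2 for Mobp. The 24-h terms of 2 of them, Mag and Mog, differed between the regimens, against 11.0% of all genes. The astrocyte markers summed to 3669 to 4290 CPM in DRF and 3568 to 4041 CPM in NRF, with none at 0. In the dark-to-light contrast 3 of the 10 astrocyte markers were higher and none lower, with a median of 0.02, and inside the food window 2 were lower, Aldh1l1 and Aldoc, with a median of 0.00. Of all genes, 18.0% and 10.4% were called in these contrasts, which is also the background for the other marker lists. Of the other marker lists, 1 of 6 neuron, 3 of 6 microglia and 1 of 4 endothelium markers were lower in the dark, with 0 of 3 choroid plexus and 0 of 6 anterior hypothalamus markers called. Inside the food window, where Phgdh was lower, the microglia marker P2ry12 was higher (0.22 ± 0.05, adjusted p = 0.00558) and C1qa lower (-0.15 ± 0.04, adjusted p = 0.0290). In the same contrast 1 marker of the anterior hypothalamus was lower. The part of these lists in the results was not tested. Phgdh correlated at 0.69 with each library's slope on GC content, and at 0.55 over the 54 libraries that did not stand apart. Removing the trends of each library with GC content, transcript length and level left its food contrast at -0.07 ± 0.02 (adjusted p = 0.0167).

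Psph (chr5:129765558-129787443), the phosphatase that completes the pathway, was at 7.97 to 12.6 CPM over all mice. Its dark-to-light difference was 0.10 ± 0.04 (adjusted p = 0.0813), short of the threshold, and its food contrast was 0.01 (95% interval -0.07 to 0.09). Its highest group was DRF at ZT16, at 11.6 ± 1.03 CPM (SD, n = 4), and its lowest NRF at ZT24, at 8.84 ± 0.731. Psph shares 452 of its 4329 exon bases with Cct6a on the opposite strand, and without strand these reads cannot be told apart.

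**Figure D2:**
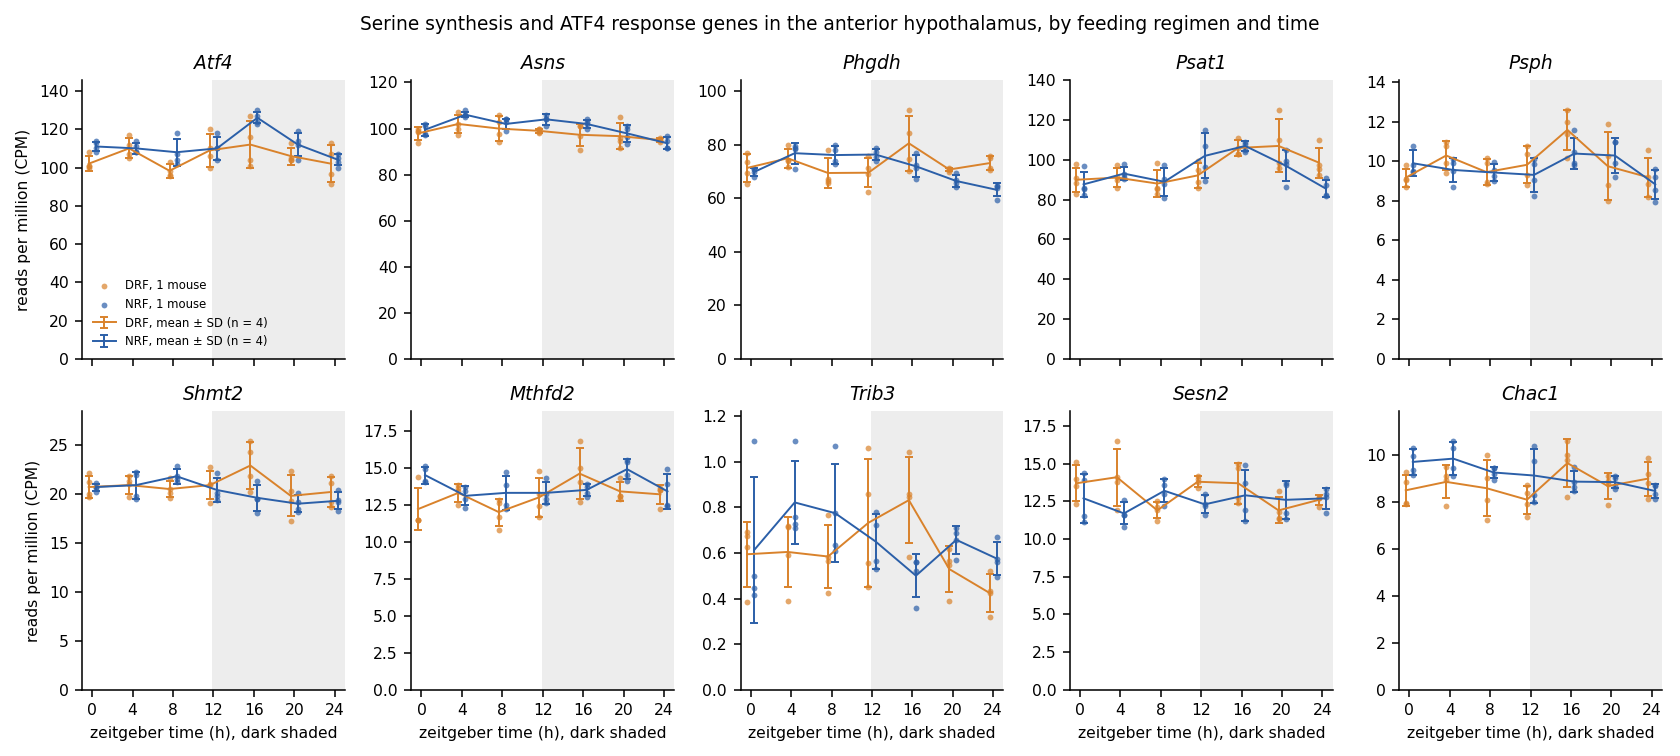
CPM of each of the 10 genes against zeitgeber time in h, 1 point per mouse, with the mean and SD of 4 mice joined by lines (DRF orange, NRF blue, dark period shaded). Psat1 is higher in the dark in both regimens, Phgdh falls to 63.2 CPM at ZT24 in NRF, and 2 of 4 DRF mice lie high for Phgdh and Shmt2 at ZT16.

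The mitochondrial enzymes Shmt2 (chr10:127517123-127522444) and Mthfd2 (chr6:83305704-83326011), which act in sequence on the carbon of serine, differed from each other. Mthfd2 was higher in the dark, by 0.11 ± 0.04 (adjusted p = 0.0197), with 10.8 to 13.8 CPM (median 12.7) in the light and 12.7 to 16.8 (median 13.6) in the dark in DRF, and with 12.2 to 14.7 (median 13.2) and 13.0 to 15.5 (median 14) in NRF. The ranges overlapped in each regimen, and neither regimen passed the threshold alone. Shmt2 gave -0.05 ± 0.03 (adjusted p = 0.269), and -0.08 ± 0.03 without the libraries that stood apart (adjusted p = 0.0441). In NRF Shmt2 was at 19.5 to 22.9 CPM (median 21.6) in the light and 18.1 to 21.3 (median 19.4) in the dark, a difference of -0.14 ± 0.05 that passed the threshold (adjusted p = 0.0201). In DRF the difference was 0.03 ± 0.05 (adjusted p = 0.749), and the food contrast, which tests the regimens against each other, gave -0.09 ± 0.03 (adjusted p = 0.0706). Shmt2 shares 32 of its exon bases with Ndufa4l2 on the other strand. Like Phgdh, it correlated with the GC slope of the libraries, at 0.73, and at 0.62 without the libraries that stood apart. Sesn2 and Chac1 correlated with this slope at 0.51 and 0.50. Across mice Shmt2 correlated at 0.56 with the summed markers of the anterior hypothalamus, at -0.43 with those of neurons and at -0.41 with those of astrocytes. With the other marker lists it correlated at -0.28 to -0.07, and the part of these lists was not tested.

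Atf4 itself (chr15:80255184-80257545) was higher in the dark by 0.10 ± 0.03 (adjusted p = 0.0161). In NRF it was at 102 to 118 CPM (median 108) in the light and 104 to 130 (median 121) in the dark, and in DRF at 95.7 to 117 (median 104) and 101 to 127 (median 105). The rise rested on ZT16, where the NRF mice had 130, 127, 124 and 123 CPM and stood above all other NRF mice. Without ZT16 the difference was 0.04 ± 0.03 (adjusted p = 0.420), and without the libraries that stood apart it was 0.06 ± 0.03 (adjusted p = 0.0641). Atf4 was also the member called between the regimens over the whole day, 1 of 10, again no larger than the share of all genes, 10.5%. Its mean was 106 ± 8.13 CPM in DRF (SD, n = 28) and 112 ± 7.68 in NRF, a difference of -0.08 ± 0.02 (adjusted p = 0.0176) and a percent change of -5.21%. The ranges, 91.6 to 127 and 100 to 130 CPM, overlapped almost throughout. The difference was -0.09 ± 0.02 without the libraries that stood apart (adjusted p = 0.00230) and -0.06 ± 0.02 without ZT16 (adjusted p = 0.0617). Across mice Atf4 correlated at 0.67 with the summed oligodendrocyte markers, of which 2 of 5 were called as lower in DRF, with a median of -0.12, and their part in the difference was not tested. Those markers summed to 3054 to 6091 CPM (median 4326) in DRF and 3840 to 6408 (median 4733) in NRF.

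Of the ATF4 targets outside serine metabolism, Asns (chr6:7675165-7693209), which makes asparagine from aspartate, had a small difference in the other direction. It was lower in the dark by 0.06 ± 0.02 (adjusted p = 0.0179), or 4.0%, with medians of 101 CPM in the light and 96.3 in the dark in DRF, and 104 and 101 in NRF. This call was lost on log2(deposited value + 1), and also when replicate number 2, 3 or 4 was left out of all groups, where the difference was -0.06, -0.05 and -0.05. The full ranges, 94.1 to 107 and 90.6 to 105 in DRF and 99.1 to 108 and 93.5 to 104 in NRF, overlapped. Its food contrast was -0.00, with a 95% interval of -0.04 to 0.04, the narrowest among the members. Sesn2 (chr4:132492804-132510456), at 10.8 to 16.5 CPM over all mice, gave 0.01 ± 0.04 for the dark and 0.02 ± 0.04 for the food contrast, with intervals of -0.07 to 0.09 and -0.06 to 0.10. Chac1 (chr2:119351242-119354326), at 7.22 to 10.6 CPM, gave -0.02 ± 0.04 for the dark and -0.08 ± 0.04 for the food contrast (adjusted p = 0.813 and 0.144). Trib3 (chr2:152337425-152344060), at 0.319 to 1.09 CPM, gave -0.06 ± 0.05 and -0.13 ± 0.05 (adjusted p = 0.472 and 0.0879). None of these 3 genes passed the threshold in the contrasts of dark, food or regimen, and the 95% interval of Trib3 in the food contrast was -0.23 to -0.03. Trib3 fell in the dark in NRF alone (-0.18 ± 0.07, adjusted p = 0.0496), from 0.608 to 1.09 CPM (median 0.742) in the light to 0.359 to 0.711 (median 0.565) in the dark, and without ZT16 this was -0.11 ± 0.09 (adjusted p = 0.363).

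**Figure D3:**
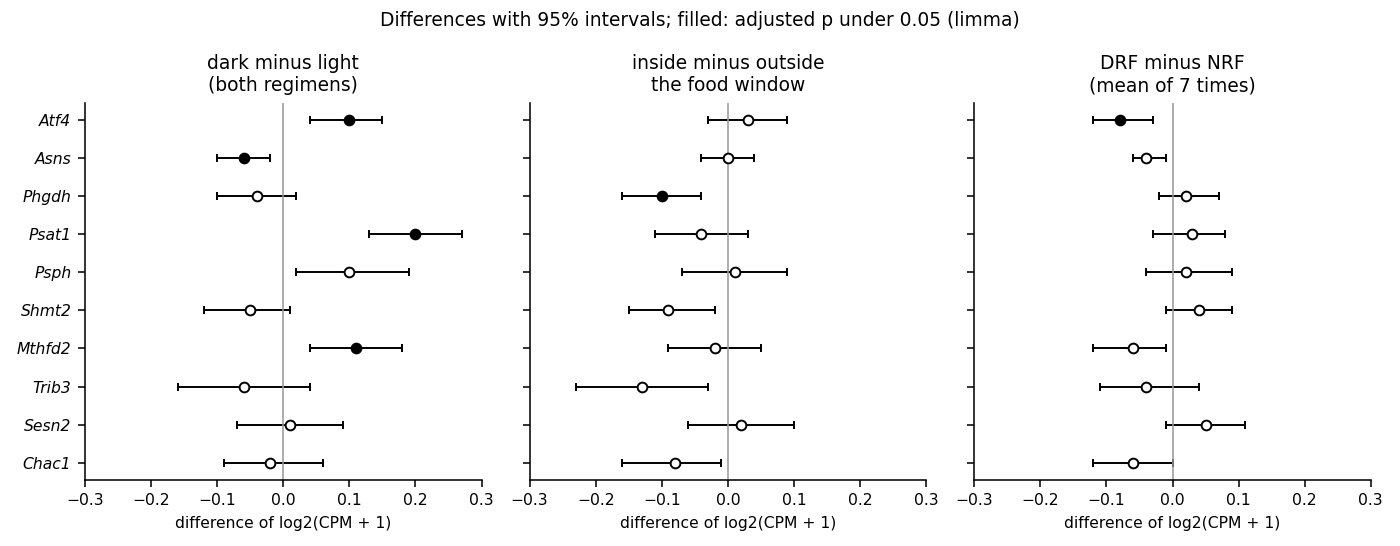
Differences of log2(CPM + 1) with 95% intervals for the 10 genes in 3 contrasts: dark minus light, inside minus outside the food window, and DRF minus NRF. Filled points have an adjusted p under 0.05, which holds for Atf4, Asns, Psat1 and Mthfd2 in the first contrast, Phgdh in the second and Atf4 in the third.

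At single time points, DRF and NRF differed for 4 of 70 combinations of member and time point, against 4.53% of all combinations tested. At ZT0, when food had just been opened for DRF and closed for NRF, Mthfd2 was lower in DRF (-0.23 ± 0.07, adjusted p = 0.0435), the 1 of 10 members called, against 4.50% of all genes. The DRF mice had 11.5, 11.5, 11.5 and 14.4 CPM and the NRF mice 15.1, 14, 14.1 and 14.9, so 3 of 4 DRF mice lay below every NRF mouse. At ZT24, the same clock time in other mice, the DRF values were 13.6, 13.5, 13.5 and 12.2 CPM and the NRF values 13.9, 12.4, 12.5 and 14.9. There the groups overlapped and the difference was -0.02 (95% interval -0.16 to 0.12). For Phgdh and Psat1 the larger difference was at ZT24 instead, with DRF minus NRF of 0.03 and 0.04 at ZT0 and of 0.21 ± 0.06 and 0.20 ± 0.07 at ZT24 (adjusted p = 0.133 and 0.330). For Phgdh at ZT24 the DRF mice had 75.0, 75.7, 70.7 and 71.4 CPM and the NRF mice 64.0, 64.6, 64.8 and 59.5, and these groups did not overlap. With the libraries at ZT16 that stood apart left out, this difference passed the threshold (0.21, adjusted p = 0.0380).

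At ZT16 3 of 10 members were called, against 20.2% of all genes. Atf4 was lower in DRF, with 104, 101, 127 and 116 CPM against the NRF values above (-0.17 ± 0.06, adjusted p = 0.0324). Shmt2 was higher in DRF, with 21.8, 20.2, 24.3 and 25.4 CPM against 21.3, 18.1, 19.5 and 19.5 (0.21 ± 0.06, adjusted p = 0.0169). Trib3 was higher too, with 0.846, 0.857, 1.04 and 0.580 CPM against 0.519, 0.559, 0.561 and 0.359 (0.28 ± 0.10, adjusted p = 0.0404). Replicates 3 and 4 of DRF were the highest for Atf4 and Shmt2, whose transcripts have GC contents of 55.5% and 57.4%, and for Trib3 they were the highest and the lowest. The oligodendrocyte markers, with which Atf4 correlated, had a median DRF minus NRF of -0.18 at ZT16, and -0.37 without these libraries, with 0 of 5 called in limma either way. Of the 6 neuron markers, 2 were called at ZT16, Syt1 (-0.36 ± 0.09, adjusted p = 0.00525) and Snap25 (-0.27 ± 0.07, adjusted p = 0.00528), both lower in DRF. The neuron list ran from -0.36 to 0.15 with a median of -0.09. Without the libraries that stood apart, 0 of the 6 were called, with a median of -0.12. Among the other lists with all mice, 2 of 10 astrocyte markers were higher in DRF and 1 lower, with a median of -0.01. Lower in DRF were 1 of 6 microglia markers, P2ry12 (-0.72 ± 0.11), and 1 of 4 endothelium markers, Tek. Of the 6 anterior hypothalamus markers, Lhx1 was higher (0.61 ± 0.12) and Six3 lower (-0.36 ± 0.08). With those libraries left out, 1 anterior hypothalamus marker was called, as higher, and none of the others. The part of these lists in the difference was not tested. Without replicates 3 and 4 the difference for Atf4 was -0.29 ± 0.06 (adjusted p = 0.0264), and those for Shmt2 (0.09 ± 0.07, adjusted p = 0.664) and Trib3 (0.31 ± 0.12, adjusted p = 0.314) no longer passed. Phgdh went from 0.15 ± 0.06 (adjusted p = 0.0583) to 0.01 ± 0.06 (adjusted p = 0.969).

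**Figure D4:**
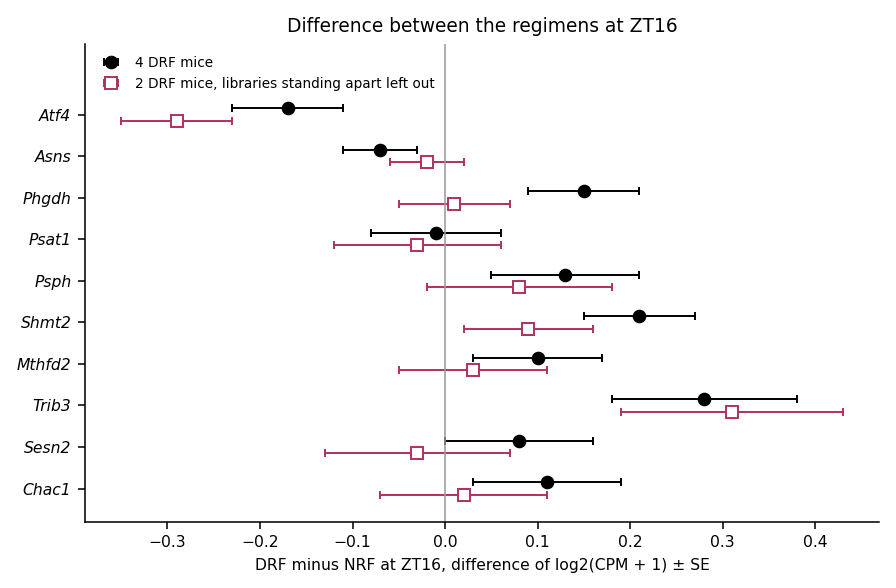
DRF minus NRF at ZT16 on the log2(CPM + 1) scale with its SE, with all 4 DRF mice (black) and with the 2 libraries that stood apart left out (open squares). Leaving them out moves Phgdh from 0.15 to 0.01 and Shmt2 from 0.21 to 0.09, and moves Atf4 from -0.17 to -0.29.

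Rhythm over the day was tested in each regimen with JTK_CYCLE and the Lomb-Scargle periodogram on the deposited values. In NRF, 3 of 10 members were rhythmic, against 27.4% of all transcripts tested: Phgdh (adjusted p = 3.32e-05), Psat1 (adjusted p = 0.0146) and Atf4 (adjusted p = 0.0164). A 24-h cosine placed the NRF peak of Phgdh at ZT9.15, late in the light, and those of Psat1 at ZT14.9 and Atf4 at ZT16.0, early in the dark. The amplitudes were 0.12, 0.14 and 0.08 on the log2 scale. Without ZT16, Phgdh remained called and Psat1 and Atf4 both had an adjusted p of 1. The cosine fit called Asns (adjusted p = 0.0137, peak at ZT9.46) and Shmt2 (adjusted p = 0.0463, peak at ZT7.12) in NRF as well, 5 of 10 members against 27.9% of genes.

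In DRF, 0 of 10 members were rhythmic by this test, against 0.800% of all transcripts, and 1 member, Psat1, had an unadjusted p under 0.05 (adjusted p = 0.0898). The 24-h cosine fitted with limma called Psat1 in DRF (adjusted p = 0.0102, amplitude 0.14, peak at ZT18.3), where it called 4.06% of genes. A call in one regimen is no test of a difference, so the 24-h terms were compared between regimens. They differed for 1 of 10 members, Phgdh (adjusted p = 0.0164), against 11.0% of all genes. Its amplitude was 0.12 in NRF, with a peak at ZT9.15, and 0.04 ± 0.03 in DRF. The DRF cosine was not called (adjusted p = 0.646), so its fitted peak, at ZT18.4, does not show a shifted rhythm. The difference held without the libraries that stood apart (adjusted p = 0.00288) and without ZT16 (adjusted p = 0.00360). It was lost in at least 1 of the fits that left out a replicate number. For Psat1 the difference between regimens gave an adjusted p of 0.0832, and for Atf4 of 0.758.

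The wider pathway was taken from 4 lists. Of 26 further ATF4 targets and amino-acid transporters, 24 were tested: 6 rose and 2 fell in the dark, 3 rose inside the food window, and 3 were higher and 1 lower in DRF. Of all genes, 18.0%, 10.4% and 10.5% were called in these contrasts with all mice, which is also the background for the other lists with all mice. Without the libraries that stood apart, 8 of the 24 rose and 3 fell in the dark and 2 rose with food. Without ZT16 the counts were 5 and 3 in the dark and 2 higher and 1 lower with food. In both of these fits the share of all genes called in the dark was larger, as given above for the members. This holds for the counts of the other lists too. The medians of the 24 genes with all mice were 0.04 for the dark, -0.01 for food and -0.00 between the regimens, beside medians of -0.01, 0.00 and -0.00 over all genes. Gpt2, a mitochondrial alanine aminotransferase, rose by 31.4% in the dark (0.39 ± 0.03, adjusted p = 5.24e-12). It was at 45.5 to 54.2 CPM in the light and 58.9 to 76.0 in the dark in DRF, without overlap, and at 42.1 to 51.4 and 49.0 to 69.1 in NRF. Cth, which makes cysteine from cystathionine, rose in the dark by 0.41 ± 0.05 on the log2(CPM + 1) scale (adjusted p = 1.50e-07), and Vegfa by 9.40% (adjusted p = 0.00217).

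Of the 3 genes of this list called with food, 2 were transporters. Slc38a2, a sodium-coupled transporter of small neutral amino acids and a known ATF4 target, was 29.8% higher inside the food window (0.38 ± 0.05, adjusted p = 1.64e-05) and 26.7% higher in the dark (adjusted p = 8.13e-06). In NRF it was at 101 to 111 CPM (median 107) in the light without food and at 151 to 202 (median 178) in the dark with food, with no overlap. In DRF it was at 116 to 164 (median 143) in the light with food and at 107 to 172 (median 136) in the dark without, nearly the same range. Slc7a11, the cystine-glutamate exchanger, was 27.0% higher inside the food window (0.34 ± 0.07, adjusted p = 8.83e-04), and Cebpg, a partner of ATF4, 11.1% (0.15 ± 0.05, adjusted p = 0.0304). Without the libraries that stood apart, Slc38a2 (0.31 ± 0.05, adjusted p = 1.17e-04) and Slc7a11 (0.27 ± 0.06, adjusted p = 0.00944) still passed, whereas Cebpg did not (0.08 ± 0.04, adjusted p = 0.245).

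**Figure D5:**
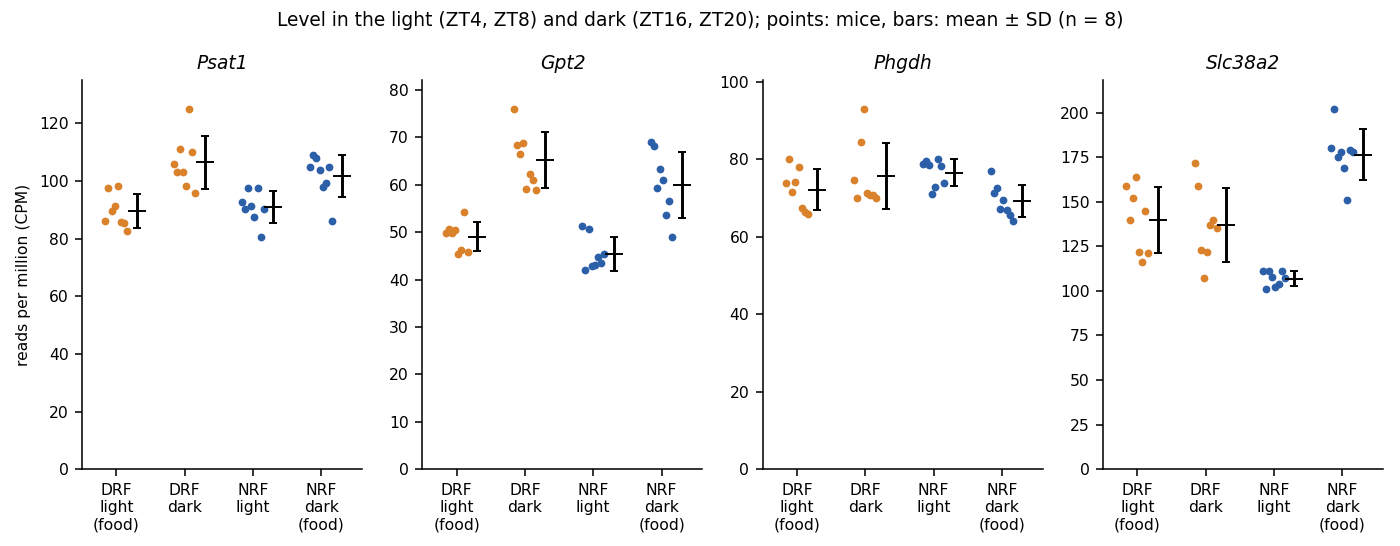
CPM in the light (ZT4 and ZT8) and the dark (ZT16 and ZT20) in each regimen, 1 point per mouse, with the mean and SD of 8 mice. Psat1 and Gpt2 are higher in the dark in both regimens, Phgdh is lower in the dark in NRF, and Slc38a2 is at 101 to 111 CPM in NRF in the light and at 151 to 202 CPM in NRF in the dark.

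Of 21 genes of one-carbon metabolism and serine use, 5 rose and 2 fell in the dark, 1 was higher and 4 were lower inside the food window, and 4 were higher and 1 lower in DRF, with medians of -0.02, -0.01 and -0.02. Among the lower ones inside the food window were Aldh1l1 (-0.19 ± 0.03, adjusted p = 1.09e-04), a folate dehydrogenase also in the astrocyte list, Mthfd1 (-0.12 ± 0.02, adjusted p = 6.03e-04), the cytosolic counterpart of Mthfd2, and Cbs (-0.16 ± 0.04, adjusted p = 0.0139), which makes cystathionine from serine and homocysteine, while the methionine synthase Mtr was higher (0.14 ± 0.04, adjusted p = 0.0103). The call of Mtr was lost without the libraries that stood apart (0.10 ± 0.03, adjusted p = 0.0855) and without ZT16 (0.11 ± 0.04, adjusted p = 0.1), and so was that of Cbs (-0.13 ± 0.05 in both, adjusted p = 0.084 and 0.163). Without the libraries that stood apart, 0 of the 21 were higher and 3 lower in the food contrast, and 5 rose and 5 fell in the dark. Without ZT16 these counts were 0 and 4 for food and 5 and 3 in the dark. Both shares of calls with all mice, 5 of 21 for food and 7 of 21 in the dark, stand beside 10.4% and 18.0% of all genes. Sds, a serine dehydratase at 1.06 ± 0.387 CPM (SD, n = 56), was higher in the dark by 0.33 ± 0.07 on the log2(CPM + 1) scale (adjusted p = 5.17e-04). In DRF it was at 0.424 to 1.10 CPM in the light and 1.26 to 2.22 in the dark (0.57 ± 0.10, adjusted p = 1.46e-04). In NRF it was at 0.489 to 1.41 and 0.784 to 1.30 CPM, which overlapped. Mat2a, which makes the methyl donor S-adenosylmethionine, rose by 10.6% in the dark (adjusted p = 0.00141).

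Of 13 aminoacyl-tRNA synthetases, classic ATF4 targets, 2 rose and 2 fell in the dark and 2 were lower inside the food window, with medians of -0.00 and -0.03. With all mice, 18.0% and 10.4% of all genes were called in these contrasts. When the libraries that stood apart were left out, 2 rose and 5 fell in the dark and 1 was lower with food, and without ZT16 2 rose and 6 fell in the dark and 1 was lower with food. Between the regimens 0 of 13 passed in limma, and 6 had an unadjusted p under 0.05. Lars was lower in the contrasts of dark (-0.15 ± 0.03, adjusted p = 4.39e-05) and food (-0.15 ± 0.03, adjusted p = 6.67e-04), and it changed in NRF only. There it was at 33.2 to 39.3 CPM (median 36.8) in the light and 27.2 to 33.5 (median 29.0) in the dark. In DRF it was at 29.0 to 36.8 (median 32.3) and 29.2 to 37.0 (median 32.0), nearly the same range. Tars rose in the dark (0.12 ± 0.02, adjusted p = 1.02e-04). Of the 8 eIF2alpha kinases and phosphatase subunits, 2 were higher and 1 lower in DRF, and 1 rose in each of the other contrasts, with medians of 0.04 between the regimens, 0.02 for the dark and 0.01 for food, beside 10.5%, 18.0% and 10.4% of all genes called. With those libraries left out, limma called 2 of the 8 as higher in the dark and none with food, and without ZT16 it called none in either. Eif2ak4, which encodes GCN2, was higher in DRF (0.09 ± 0.02, adjusted p = 0.00564), as was its activator Gcn1 (0.10 ± 0.02, adjusted p = 0.00331), and Eif2s1, which encodes eIF2alpha, was lower (-0.09 ± 0.03, adjusted p = 0.0175). Ppp1r15b, a phosphatase subunit that reverses the phosphorylation, was higher in the contrasts of dark (0.11 ± 0.03, adjusted p = 0.0112) and food (0.13 ± 0.03, adjusted p = 0.0111), the latter being 0.09 ± 0.03 without the libraries that stood apart (adjusted p = 0.0836). Its median was 58.5 CPM in the light and 68.7 in the dark in NRF, but 63.4 and 62.8 in DRF.

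Across the 56 mice the members varied mostly apart from each other. The 45 pairs of members had correlations of log2(CPM + 1) from -0.27 to 0.55 with a median of 0.19, and 3 pairs were above 0.5. These were Phgdh with Shmt2 (0.55), Phgdh with Chac1 (0.53) and Atf4 with Psat1 (0.53). All values of a mouse share its library, and the GC content of the transcripts was 55.5% to 58.7% in Atf4, Phgdh, Shmt2, Trib3, Sesn2 and Chac1 and 47.7% to 49.6% in Asns, Psat1, Psph and Mthfd2. The genes most like each member were mostly outside its pathway. For Atf4 they were Adipor1 (0.81) and Cyth2 (0.79), for Asns Vdac2 (0.81) and Atp5c1 (0.74), and for Shmt2 Tmem214 and Pef1 (0.81 each). For Phgdh they were Csrp1 and Napa (0.81), and Ckb, Acsbg1 and Cdk10 (0.80). The closest to Psph were Fbxw4 (0.72) and Pdrg1 (0.71), to Mthfd2 Cct5 and Gon7 (0.63), to Trib3 Ramp1 (0.58) and Gnb5 (0.55), to Sesn2 Pom121 (0.72) and Rnf40 (0.71), and to Chac1 Prr13 (0.79) and Lypla2 (0.76).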

How the data were processed

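The members and gene lists were chosen with earlier results of these data known. Per the study's methods and the submitters' processing notes, poly(A) RNA was sequenced in pairs, mapped with HISAT2 to GRCm38.p6, aligned to coding genes with Bowtie2, quantified with RSEM, TMM-normalized and converted. The authors deposited 1 value per gene and mouse, named TPM, used here as a score because it is not proportional to reads. The deposited score steps as log2(CPM + 1) divided by exon length and rescaled per mouse by 0.987 to 1.009, so it compresses folds. Undoing this gave whole reads (within 0.01, or the rounding of the stored value) for 15047 of 17564 genes (85.7%), and for all 10 members at the exon length used for each. Exon lengths were those of GENCODE M21 where these gave whole reads. The length used for Psat1 was 4254 bases, against 4201 exon bases in the search for overlapping genes. Gene IDs were matched to RefSeq symbols for 17456 genes. Recovered reads were not tested as counts, since the deposited unit is not counts.

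Tests were run on genes that reached a deposited value of 1 in 80% of mice or more, 16245 on the deposited scale and 16044 on CPM. Group means of log2(CPM + 1) were fitted over all 56 mice with limma 3.58.1, with Benjamini-Hochberg adjustment and a threshold of 0.05. Rhythms with periods of 20 to 28 h were tested with JTK_CYCLE and Lomb-Scargle, joined by Fisher's method. The scripts were tested on simulated data. From the lists, 2 genes are not reported here and enter no count or sum. All members were named, with at most 4 genes per list and contrast by adjusted p, and the 2 genes most correlated with each member (5 for Phgdh). Whether the kit kept strand is not given in the sources used here. Intervals give the uncertainty of an estimated difference between group means, judged from the variation between mice of the same group. They do not give the range of single mice.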

Additional observations from a re-analysis of the deposited data

Results flagged for a closer look

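Of the 140 groups of 4 mice (10 genes in 14 groups), 8 held a mouse far from the other 3 by Dixon's test, and chance flags about 1 in 20 groups. For Phgdh these were DRF ZT8 replicate 1 at 78.0 CPM (the others 65.9 to 67.4), NRF ZT4 replicate 4 at 71.0 (78.5 to 79.5) and NRF ZT24 replicate 4 at 59.5 (64.0 to 64.8). For Mthfd2 they were DRF ZT0 replicate 4 at 14.4 CPM, where the other 3 mice had 11.5 each, and DRF ZT24 replicate 4 at 12.2 (13.5 to 13.6). Trib3 had NRF ZT0 replicate 2 at 1.09 CPM (0.415 to 0.499) and NRF ZT4 replicate 4 also at 1.09 (0.707 to 0.757), and Atf4 had DRF ZT20 replicate 2 at 113 CPM (104 to 105).

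Phgdh also differed between the regimens in a direct test. Its contrast of light and dark differed between DRF and NRF, a food contrast of -0.10 on the log2 scale, and its 24-h amplitude in DRF minus that in NRF was -0.09. The food contrast was no longer called without ZT16 or without the libraries that stood apart, whereas the difference of the 24-h terms was called in both.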

How the results depend on the processing

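Of 1530 values of single members under another setting, 1455 kept their side of the threshold, 52 fell below it, 23 passed it and 0 reversed a call. Among the 1310 of these values that came from limma, 77 that were not called changed sign. The higher level of Psat1 in the dark passed under each of the 12 alternatives run. Between the regimens 1 member was called, 0 on log2(deposited value + 1) and 0 to 1 with each replicate number left out in all 14 groups. For dark against light 4 members were called, and 1 to 3 without a replicate number, Psat1 each time. For food 1 member was called, 0 without ZT16, 0 without the libraries that stood apart (an alternative chosen after seeing the data) and 0 to 2 without a replicate number. The difference in rhythm was called for 1 member, for 2 after quantile normalization and 2 with library trends removed (Phgdh and Psat1), and for 0 to 1 without a replicate number. Over single time points 4 differences were called, and 0 to 3 without a replicate number. After quantile normalization Atf4 at ZT16 (adjusted p = 0.12) and Mthfd2 at ZT0 (adjusted p = 0.0565) did not pass in limma. In DRF 0 members were rhythmic, and 1 by the 24-h cosine, also with library trends removed. In NRF 3 were rhythmic, with 0 by Lomb-Scargle alone, 5 on CPM, 5 by the cosine, 1 without ZT16 and 1 to 2 without a replicate number. The cause of these changes was not tested. The share of all genes called also moved with the setting, as given above for dark against light. It is not given here for each setting, so the counts in this section do not show a change particular to the members. Trib3, with 10 to 34 reads, is limited by depth.

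Same-numbered mice did not deviate together (median correlation 0.005, lowest -0.529, against -0.005 for other numbers). With the replicate block, 1 member was called for regimen, 4 for dark against light, 1 for food, 1 for the difference in rhythm and 4 over time points, as without it. The 24-h cosine with the replicate block called 1 member in DRF and 4 in NRF.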
